A study of Homo sapiens with 12 samples.

Results

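The 8 genes described here encode 5 bicarbonate carriers (SLC4A2, SLC4A3, SLC4A4, SLC4A7 and SLC26A6) and 3 carbonic anhydrases (CA2, CA9 and CA12). They were taken by symbol from the gene identifiers of the deposited tables, as 8 of 62710 genes. The set was chosen with earlier results of these data known. All 8 passed the filter on low counts that left 18355 genes for testing.

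Cells keep their cytosol near neutral by moving protons and bicarbonate across the plasma membrane. In many cells sodium-bicarbonate cotransporters bring base in and chloride-bicarbonate exchangers let base out. Carbonic anhydrases interconvert carbon dioxide with bicarbonate and a proton on either side of the membrane. Liver cells also secrete bicarbonate into bile, and cells that export much lactic acid lean on bicarbonate import and on carbonic anhydrases at the cell surface. Transcript levels were measured here, not the pH of cells or medium, which is not given in the sources used here.

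Total RNA of 3 established human hepatocellular carcinoma lines, HLF, SNU475 and PLC/PRF/5, was sequenced in 12 libraries. Each line had 2 control libraries and 2 libraries from cells kept for 24 h with 20 mM lactate, added as lactic acid, so the acid and the lactate ion came together. No genetic change was made in any group, and each line is 1 model of the disease. Whether the paired libraries within each group stem from independent cultures is not stated, so any p-value reflects library-to-library spread alone, part of which may be technical.

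The libraries held between 16533437 and 22187849 estimated gene counts. Transcripts of the mitochondrial genome took 3.39% to 15.05% of them, with both SNU475 libraries numbered 2 at the top (15.05% in the control and 13.88% in the lactate library) against 8% and 8.5% in those numbered 1. Hepatocyte markers summed to 3103 to 6859 TPM, a level scaled by gene length and depth, in PLC/PRF/5, with 0 of 8 markers at 0. In HLF they summed to 9.63 to 17.3 TPM, with APOA1, APOB, TTR and HNF4A at 0, and in SNU475 to 5.42 to 8.45 TPM, with APOA1, APOB and TTR at 0. SNU475 instead carried 904 to 1748 TPM of 6 stellate and fibroblast markers, against 20.8 to 56.1 TPM in HLF and 1.9 to 5.35 TPM in PLC/PRF/5. These are bulk samples, in which fewer cells of a kind and less RNA per cell cannot be told apart.

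Without lactate, the 3 lines used different members of the set. SLC4A2, a chloride-bicarbonate exchanger, had the highest per-length level of the 8 genes in every line. Behind it, the leading carbonic anhydrase was CA9 in HLF, CA12 in SNU475 and CA2 in PLC/PRF/5. PLC/PRF/5 also had the highest levels of the sodium-bicarbonate cotransporters SLC4A4 and SLC4A7 and of the exchanger SLC26A6. On the TPM scale, which divides by the length estimated for each gene, SLC4A2 stood at 399.8 ± 70.4 (SD, n = 2) for HLF, 402 ± 20.1 for SNU475 and 303 ± 19.1 for PLC/PRF/5. The next level in each line was 19.6 ± 14.9 TPM (SLC4A7) in HLF, 15.3 ± 5.54 TPM (CA12) in SNU475 and 72.5 ± 8.59 TPM (CA2) in PLC/PRF/5.

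In HLF, SLC4A7 was followed by CA9 (8.87 ± 3.72 TPM), SLC26A6 (8.84 ± 2.14 TPM) and SLC4A4 (3.35 ± 0.594 TPM). The values of the first 3 overlapped, so that their order is not beyond the spread, while both SLC4A4 libraries lay below them. SLC4A3 (0.085 ± 0.0636 TPM) and CA2 (0.08 ± 0.113 TPM) were near nothing, and CA12 had 0 counts in both control libraries. In SNU475, SLC4A7 (4.99 ± 2.5 TPM), SLC26A6 (4.22 ± 0.841 TPM), CA9 (2.15 ± 2.24 TPM), SLC4A3 (2.1 ± 0.962 TPM) and SLC4A4 (1.68 ± 1.2 TPM) followed CA12, each overlapping its neighbour. PLC/PRF/5 had SLC4A7 (55.5 ± 10.1 TPM) below CA2 and above SLC26A6 (26.9 ± 4.02 TPM) and SLC4A4 (26.3 ± 1.17 TPM), which overlapped. CA9 (3.65 ± 2.78 TPM), SLC4A3 (1.06 ± 0.00707 TPM) and CA12 (0.12 ± 0.0566 TPM) closed that order.

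**Figure D1:**
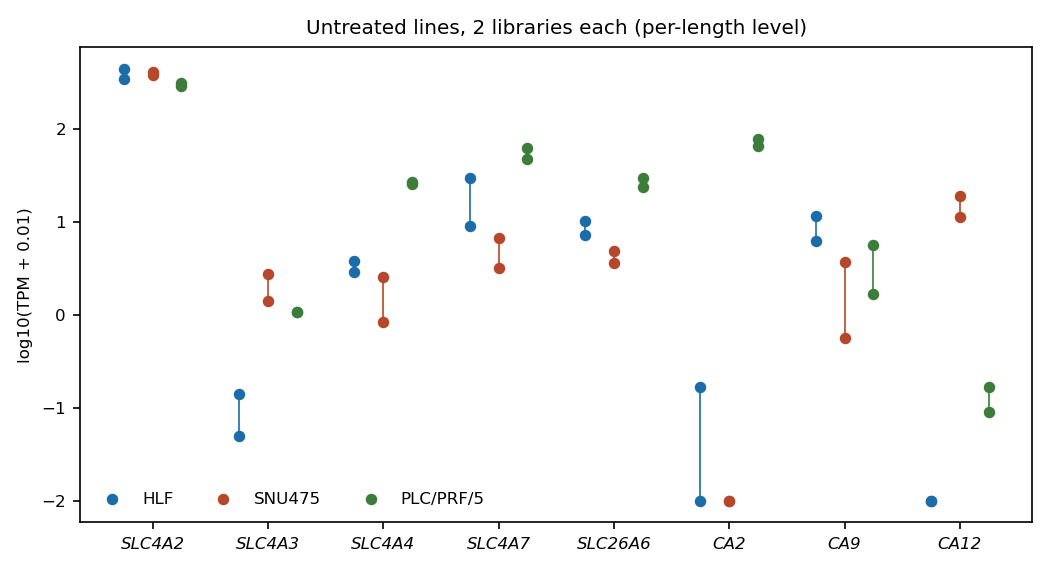
Per-length level of the 8 genes in the untreated libraries, as log10(TPM + 0.01) on the vertical axis, with 1 point per library, 2 per line, joined by a line. SLC4A2 is near the same height in the 3 lines, whereas CA2 is high in PLC/PRF/5 alone of the 3 lines and CA12 in SNU475 alone.

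The untreated lines were compared in 3 pairs that share their control groups, with the quasi-likelihood test of edgeR and Benjamini-Hochberg adjustment over the 18355 genes. Between SNU475 and HLF, 4 of the 8 genes passed an adjusted p of 0.05, 2 higher and 2 lower in SNU475, where 39% of all tested genes passed, 21.9% as higher and 17.2% as lower. Between PLC/PRF/5 and HLF, 6 of 8 passed, all 6 higher in PLC/PRF/5, where 43% of all genes passed and 21.7% passed as higher. Between PLC/PRF/5 and SNU475, 6 of 8 passed, 4 higher and 2 lower in PLC/PRF/5, where 48.7% of all genes passed, 22.4% as higher and 26.3% as lower. SLC4A2 and CA9 passed in no pair, while SLC4A3, SLC4A7, SLC26A6 and CA12 passed in each of the 3. With only 8 members, their share is set beside that of all genes as a description.

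Against lactate, none of the 8 genes passed the same test in any line. The background was as empty: the share of all tested genes that passed was 0% for each of the 3 lines and 0% for the interaction of lactate with line. For the mean of the 3 lactate effects, 0 of 8 members passed, against 0.42% of all genes. At an unadjusted p under 0.05 edgeR gave 1 member in HLF (6.28% of all genes), 2 in SNU475 (11.6%), 1 in PLC/PRF/5 (5.92%), 2 for the mean effect (15.8%) and 0 for the interaction (3.51%). DESeq2 called 0 members in each of the 3 lines and for the interaction and 1 for the mean effect. Of the 18355 genes it called 41 in HLF, 274 in SNU475, 91 in PLC/PRF/5, 9 for the interaction and 977 (5.32%) for the mean effect. Both limma-voom and limma on log2(TPM + 0.5) called 0 members in all 5, with 16 and 9 genes called in all for the mean effect. The labels number the libraries of each group. Deviations from the group mean correlated between same-numbered libraries at 0.446 in SNU475, but only at 0.101 in HLF and 0.132 in PLC/PRF/5. With that number as a replicate block in the edgeR fit, 3 members passed for the mean effect, where 6.91% of all genes passed: SLC4A2 was lower, and SLC4A7 and CA9 were higher. The block added no member in any single line.

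**Figure D2:**
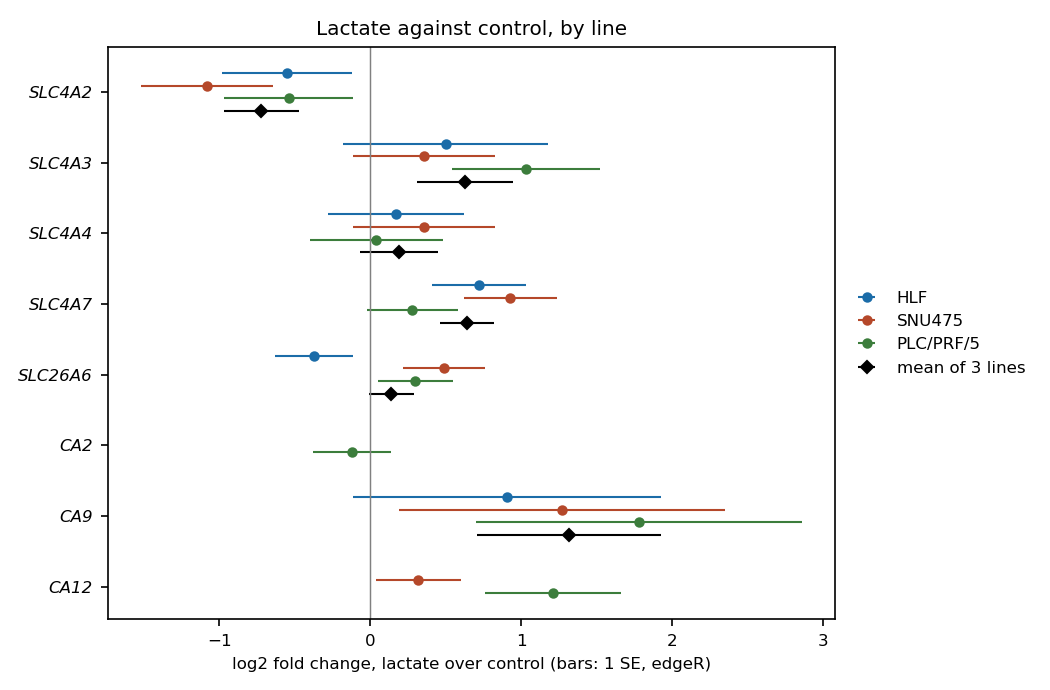
Lactate over control as log2 fold change (horizontal axis) for each gene, with 1 SE from the edgeR fit, by line and as the mean of the 3 lines. SLC4A2 lies left of 0 in the 3 lines, and SLC4A7 and CA9 lie right of 0 in them; no point is drawn where a group held 3 counts or fewer.

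Between the libraries themselves, 2 members were higher without overlap (SLC4A7 and CA9) and 1 lower (SLC4A2) in HLF, where 19.7% of all tested genes were higher in that way and 19.9% lower. In SNU475 the counts were 2 higher (SLC4A7 and SLC26A6) and 1 lower (SLC4A2), against 16.2% and 15.4% of all genes. CA2 is left out there, since it had 0 and 0 against 1 and 1 counts. The PLC/PRF/5 libraries gave 3 members higher (SLC4A3, SLC26A6 and CA12) and 1 lower (SLC4A2), against 28.5% and 21.8%. The median log2 fold change over the members with a fold was 0.34 in HLF (6 genes), 0.36 in SNU475 (7 genes) and 0.29 in PLC/PRF/5 (8 genes), beside medians of 0.00, 0.01 and 0.03 over all tested genes. For the mean effect it was 0.41 over 6 genes, 5 of them positive, beside 0.03.

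**Figure D3:**
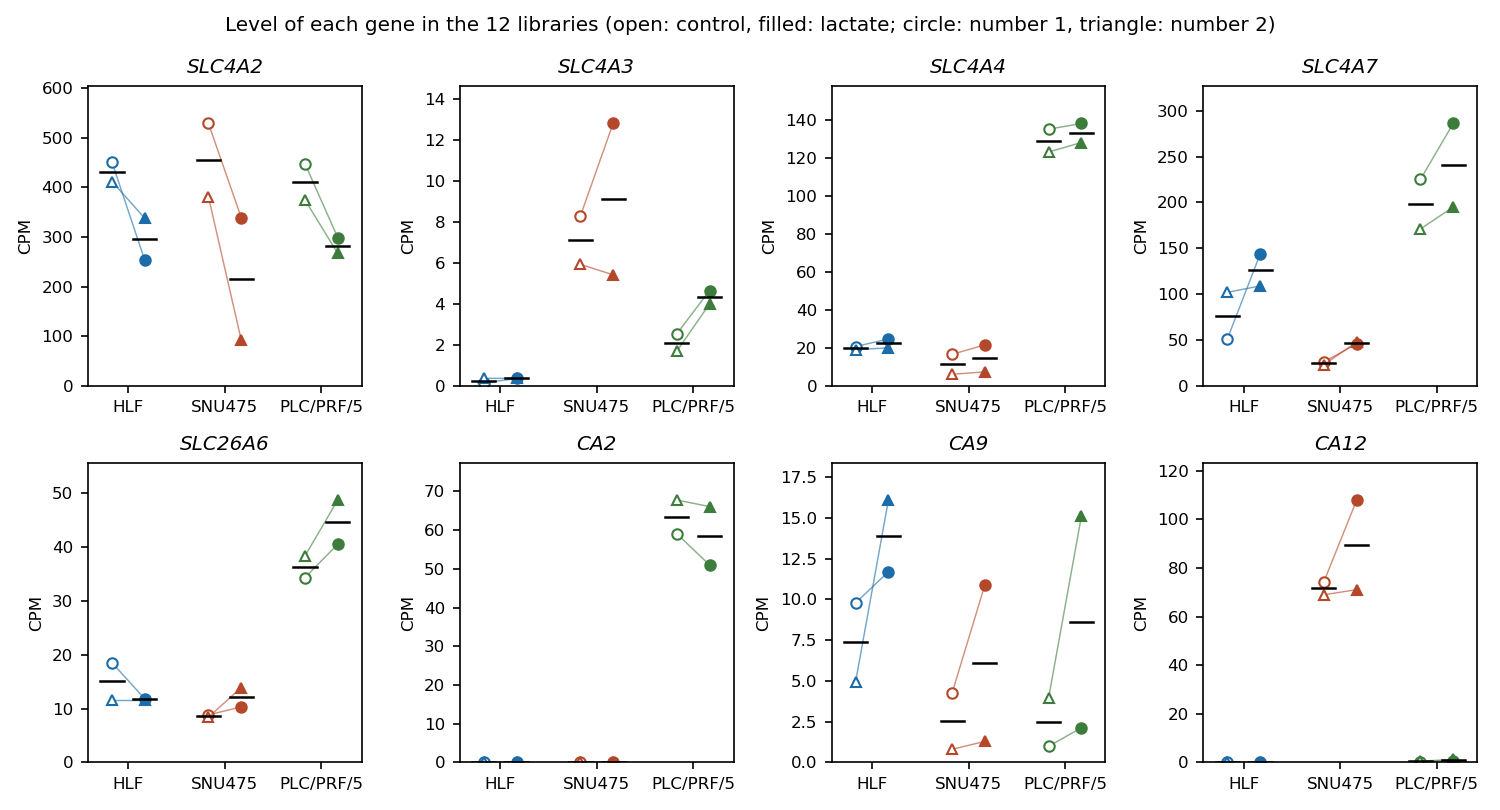
Level in CPM (vertical axes from 0, a scale per gene) in the 12 libraries, open for control and filled for lactate, with circles for libraries numbered 1, triangles for those numbered 2, a line joining same-numbered libraries and a bar at each group's mean. In the 6 same-numbered pairs the filled point is below the open one for SLC4A2 and above it for SLC4A7 and CA9, and CA2 is high in PLC/PRF/5 and CA12 in SNU475, with CA12 low but present in PLC/PRF/5.

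The chloride-bicarbonate exchangers load the cell with acid by trading internal bicarbonate for chloride. SLC4A2 (AE2, ENSG00000164889.15; chromosome 7, 151057210 to 151076527, plus strand, GRCh38 by GENCODE v29) is the widely expressed one and serves bicarbonate secretion into bile. Levels are given in CPM, counts scaled to the library size. In HLF it was read at 451 and 412 CPM in the controls and at 253 and 338 CPM with lactate. In SNU475 the controls gave 529 and 381 CPM and the lactate libraries 339 and 92.1 CPM. The PLC/PRF/5 controls had 448 and 375 CPM and the lactate libraries of that line 299 and 267 CPM. Each lactate library was below both controls of its line, which held in the 3 lines for 3.37% of all tested genes. Among same-numbered libraries the ratio of lactate to control was 0.56 and 0.82 in HLF, 0.642 and 0.242 in SNU475 and 0.667 and 0.712 in PLC/PRF/5. All 6 pairs were thus below 1, as in 7.58% of all genes.

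The fitted log2 fold change of SLC4A2 was -0.55 ± 0.43 (SE) for HLF, -1.08 ± 0.44 for SNU475 and -0.54 ± 0.43 for PLC/PRF/5, with edgeR adjusted p of 0.9, 0.377 and 0.97. Its mean effect was -0.72 ± 0.25, a 1.65-fold lower level, with an unadjusted p of 0.0147 and an edgeR adjusted p of 0.193. With the replicate block the mean effect was -0.81 with an edgeR adjusted p of 0.0189. The SNU475 value depended on which lactate library was kept. Without the second it was -0.43 (edgeR adjusted p 0.562) and the mean effect was -0.50 (adjusted p 0.074). Without the first it was -2.30 (edgeR adjusted p 0.00135; 9.21% of all genes passed), the mean effect was -1.13 (adjusted p 0.00175; 7.69% passed) and the interaction reached an adjusted p of 0.0405 (1.05% passed). The lone SNU475 lactate library left in the latter case, at 92.1 CPM, had the mitochondrial share of 13.88%, whose part in the value was not tested. Dropping the 2 SNU475 libraries numbered 2 gave a mean effect of -0.58 with an edgeR adjusted p of 0.0211 (2.76% of all genes passed).

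Untreated, SLC4A2 differed by less than its error between the lines, at log2 0.08 ± 0.43 for SNU475 over HLF, -0.07 ± 0.43 for PLC/PRF/5 over HLF and -0.14 ± 0.43 for PLC/PRF/5 over SNU475. Its effective length as estimated by RSEM ran from 0.89 to 2.04 kb over the libraries, and was longest in the 4 PLC/PRF/5 libraries. Of the 19 transcripts GENCODE v29 lists for the gene, 15 are under 1000 bases and 10 are not protein coding, while the longest coding one has 4.92 kb. The per-length level of SLC4A2 thus rests on how RSEM shared reads among short and long transcripts, and its distance from the other members in TPM carries that limit. The counts are not divided by that length, but a shift between short and long transcripts could still move them. For untreated PLC/PRF/5 over HLF the log2 fold change was -0.07 on counts and -0.39 with limma on log2(TPM + 0.5). SLC4A2 is also 1 of 2 members with counts that were not whole (in 12 of 12 libraries, tolerance 0.001). Its exons share 331 bases (4.36%) with CDK5 and 714 bases (9.41%) with the antisense gene AC010973.2, both on the other strand. Libraries were made with a kit that marks strand, but the strand setting of the counting is not given in the sources used here, so shared reads cannot be told apart. CDK5 had a mean effect of -0.28 ± 0.13 (edgeR adjusted p 0.329).

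**Figure D4:**
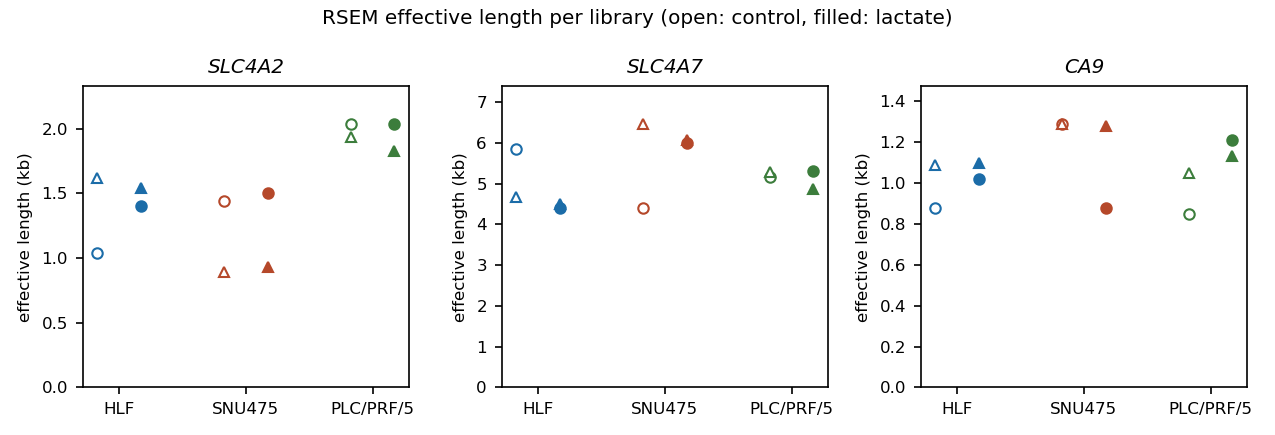
Effective length in kb (vertical axes from 0) that RSEM estimated for SLC4A2, SLC4A7 and CA9 in each library, open for control and filled for lactate, circles for number 1 and triangles for number 2. SLC4A2 runs from 0.89 to 2.04 kb with PLC/PRF/5 at the top, SLC4A7 from 4.39 to 6.47 kb, and CA9 from 0.85 to 1.29 kb.

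Promoter windows of RefSeq (GRCh38.p14, 250 bases before to 50 after a start site) were available for 7 of the 8 genes, as 16 windows. They were searched on both strands for the letters ACGTG, the core of the element that hypoxia-inducible factors bind. That core was found in 3 windows of 2 members, SLC4A2 and CA9, and in 21.4% of all 35116 windows. The E-box is the core with 1 more C in front and so reads the same on both strands. It was found in 2 of the 16 windows and in 7.26% of all windows. Both are windows of SLC4A2 that overlap each other and hold the same stretches. The matches of these 2 genes are shown, and any link between them and the lactate folds was not tested. The SLC4A2 stretches lie 114 and 81 bases before and 27 bases after the start site at 151062547, on the plus strand, and fall in the window of a second start site at 151062642 too. Capitals mark the E-box.
SLC4A2, chr7:151062421-151062450: acgccccctgccCACGTGccacccaggccc
SLC4A2, chr7:151062454-151062483: cctccctgccccCACGTGgccaccgctcca
SLC4A2, chr7:151062562-151062591: ggcccagaggggCACGTGactgggaagggg
The CA9 stretch has its match 18 bases before the start site at 35673928, on the plus strand, where capitals mark the core as read on the other strand.
CA9, chr9:35673898-35673927: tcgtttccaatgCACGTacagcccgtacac
A match in letters is a description of the window and says nothing of binding in these cells.

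SLC4A3 (AE3, ENSG00000114923.17; chromosome 2, 219627327 to 219641980, plus strand) is the related exchanger best known from heart and brain, and it was scarce here. In HLF it had 0.149 and 0.369 CPM in the controls and 0.363 and 0.371 CPM with lactate, from 3 to 8 counts a library. In SNU475 it had 8.27 and 5.93 CPM without and 12.8 and 5.42 CPM with lactate, so that the groups overlapped. In PLC/PRF/5 it had 2.54 and 1.69 CPM without and 4.65 and 4 CPM with lactate, with no overlap. The log2 fold changes were 0.50 ± 0.68, 0.36 ± 0.47 and 1.03 ± 0.49 in that order, and the mean effect was 0.63 ± 0.32 (edgeR adjusted p 0.366). Without the first SNU475 lactate library the SNU475 value was -0.39.

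Between untreated lines SLC4A3 was 27-fold higher in SNU475 than in HLF (log2 4.75 ± 0.61, edgeR adjusted p 0.000116) and 8.03-fold higher in PLC/PRF/5 than in HLF (log2 3.01 ± 0.61, adjusted p 0.00202). It was 3.36-fold lower in PLC/PRF/5 than in SNU475 (log2 -1.75 ± 0.49, edgeR adjusted p 0.0125). That last call was lost on the TPM scale (-0.68, limma adjusted p 0.215), without the first SNU475 control (edgeR adjusted p 0.0609) and without the second PLC/PRF/5 control (adjusted p 0.11).

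SLC26A6 (ENSG00000225697.13; chromosome 3, 48625723 to 48635493, minus strand) belongs to another carrier family and exchanges chloride for bicarbonate, oxalate and other anions. In HLF the controls had 18.5 and 11.6 CPM and the lactate libraries 11.8 and 11.6 CPM, so that 1 control stood apart from the other 3 libraries. In SNU475 the controls had 8.83 and 8.4 CPM and the lactate libraries 10.3 and 13.9 CPM. The PLC/PRF/5 controls had 34.3 and 38.3 CPM and the lactate libraries of that line 40.5 and 48.7 CPM. The lactate libraries were above both controls in SNU475 and PLC/PRF/5, whereas the groups overlapped in HLF. The log2 fold changes were -0.37 ± 0.26 for HLF, 0.49 ± 0.27 for SNU475 and 0.30 ± 0.25 for PLC/PRF/5. The interaction gave an unadjusted p of 0.0927 and an edgeR adjusted p of 1, and the mean effect was 0.14 ± 0.15 (adjusted p 0.726). In HLF the sign turned on the TPM scale (0.18) and without the first control (0.03).

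Untreated SLC26A6 was 2.41-fold higher in PLC/PRF/5 than in HLF (log2 1.27 ± 0.26, edgeR adjusted p 0.00227) and 4.21-fold higher than in SNU475 (log2 2.07 ± 0.27, adjusted p 8.78e-05). It was 1.75-fold lower in SNU475 than in HLF (log2 -0.81 ± 0.26, edgeR adjusted p 0.0308), a call near the threshold. Leaving out the first HLF control brought that value to -0.40 with an edgeR adjusted p of 0.308. The call was also lost without the first HLF lactate library, without either SNU475 control, and without either PLC/PRF/5 control (edgeR adjusted p between 0.0509 and 0.125). It was lost as well with no filter on low counts (adjusted p 0.0628), in limma-voom (0.0565), with only the groups compared (0.112) and without both SNU475 libraries numbered 2 (0.0509).

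The sodium-bicarbonate cotransporters move bicarbonate with sodium, in many cells inward. SLC4A4 (NBCe1, ENSG00000080493.19; chromosome 4, 71062667 to 71572087, plus strand) carries charge with its bicarbonate and is prominent in kidney and pancreas. In HLF it had 20.7 and 19.1 CPM in the controls and 24.7 and 20 CPM with lactate. In SNU475 it had 16.6 and 6.1 CPM in the controls and 21.6 and 7.39 CPM with lactate. For PLC/PRF/5 the values were 135 and 123 CPM in the controls and 138 and 128 CPM with lactate. Groups overlapped in the 3 lines, and the SNU475 libraries parted by number, with both numbered 2 below both numbered 1. Those numbered 2 are the ones with mitochondrial shares of 15.05% and 13.88%, whose part in this was not tested.

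The log2 fold changes of SLC4A4 were 0.17 ± 0.45 for HLF, 0.36 ± 0.47 for SNU475 and 0.04 ± 0.44 for PLC/PRF/5. The mean effect of 0.19 ± 0.26 (edgeR adjusted p 0.815) was the lowest after SLC26A6 among the members with a positive value, although lactate was above control in 6 of 6 same-numbered pairs, as in 7.26% of all genes. Without the first SNU475 lactate library the mean effect was -0.14 and the SNU475 value -0.62. Between lines the gene was 6.48-fold higher in PLC/PRF/5 than in HLF (log2 2.70 ± 0.47, edgeR adjusted p 0.000817) and 11.4-fold higher than in SNU475 (log2 3.51 ± 0.49, adjusted p 0.000159). SNU475 over HLF gave -0.81 ± 0.46 (edgeR adjusted p 0.188), -0.77 (adjusted p 0.0191) with no filter on low counts, and -1.71 (adjusted p 0.0229) without the first SNU475 control.

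SLC4A7 (NBCn1, ENSG00000033867.17; chromosome 3, 27372721 to 27484420, minus strand) moves sodium and bicarbonate together without net charge and is a main acid extruder in breast cancer cells. In HLF it had 51.4 and 102 CPM in the controls and 144 and 109 CPM with lactate. In SNU475 it had 26.2 and 23.1 CPM in the controls and 45.8 and 47.9 CPM with lactate. For PLC/PRF/5 the values were 225 and 171 CPM in the controls and 286 and 195 CPM with lactate. Both lactate libraries were above both controls in HLF and in SNU475, and the groups overlapped in PLC/PRF/5. The ratio of lactate to control in same-numbered libraries was 2.79 and 1.07 in HLF, 1.75 and 2.08 in SNU475 and 1.27 and 1.14 in PLC/PRF/5. It was above 1 in 6 of 6, as in 7.26% of all genes.

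The log2 fold change of SLC4A7 was 0.72 ± 0.31 in HLF (unadjusted p 0.0375, edgeR adjusted p 0.787), 0.93 ± 0.31 in SNU475 (0.012 and 0.308) and 0.28 ± 0.30 in PLC/PRF/5 (0.37 and 0.989). Its mean effect of 0.64 ± 0.18, a 1.56-fold higher level, had the lowest p of the members, 0.00368 unadjusted and 0.116 adjusted by edgeR over all genes. With the replicate block it was 0.66 with an edgeR adjusted p of 0.0312, and with DESeq2 it was 0.65 with an adjusted p of 0.0178, where 5.32% of all genes passed. Without the first PLC/PRF/5 lactate library the value in that line was -0.02. Between untreated lines, SNU475 was 3.12-fold below HLF (log2 -1.64 ± 0.31, edgeR adjusted p 0.00176). PLC/PRF/5 was 2.58-fold above HLF (log2 1.37 ± 0.31, edgeR adjusted p 0.00409) and 8.03-fold above SNU475 (log2 3.01 ± 0.33, adjusted p 2.53e-05).

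The carbonic anhydrases speed the exchange between carbon dioxide and bicarbonate. CA2 (ENSG00000104267.10) is the fast cytosolic enzyme of red cells, kidney and secretory epithelia. For PLC/PRF/5 the values were 59.1 and 67.8 CPM in the controls and 51 and 66.1 CPM with lactate, which overlapped, and a log2 fold change of -0.12 ± 0.26 (edgeR adjusted p 1). Without the first lactate library of that line the value was 0.06. In the 8 libraries of the other two lines CA2 had at most 1 count each. The PLC/PRF/5 controls held 2411 counts against 1 in the HLF controls, a ratio of 2492 on scaled library sizes with a 95% counting interval of 447 to 98463 (edgeR adjusted p 2.97e-07). Against the SNU475 controls, which held 0 counts, the level was at least 747-fold higher, from a limit of 3 counts over the group (edgeR adjusted p 3.1e-07). These intervals and limits cover counting error only.

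CA9 (ENSG00000107159.14; chromosome 9, 35673856 to 35681159, plus strand) sits in the plasma membrane with its active site outside the cell and is a well-known target of hypoxia-inducible factors in tumours. In HLF it had 9.79 and 4.95 CPM in the controls and 11.7 and 16.1 CPM with lactate. In SNU475 it had 4.26 and 0.805 CPM in the controls and 10.9 and 1.29 CPM with lactate. For PLC/PRF/5 the values were 0.991 and 3.95 CPM in the controls and 2.12 and 15.1 CPM with lactate. Only in HLF did the groups not overlap. In the other lines the libraries of 1 group lay far apart: 5.29-fold (control) and 8.5-fold (lactate) in SNU475, and 3.99-fold and 7.14-fold in PLC/PRF/5. In SNU475 the low libraries are those numbered 2, with the high mitochondrial share, whose part in this was not tested. Between same-numbered libraries the ratio of lactate to control was 1.2 and 3.26 in HLF, 2.57 and 1.6 in SNU475 and 2.14 and 3.83 in PLC/PRF/5. It was above 1 in 6 of 6, as in 7.26% of all genes.

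The log2 fold change of CA9 was 0.91 ± 1.02 for HLF, 1.27 ± 1.08 for SNU475 and 1.78 ± 1.08 for PLC/PRF/5. The mean effect was 1.32 ± 0.61, a 2.5-fold higher level and the largest of the 6 members with a value, at an unadjusted p of 0.053 and an edgeR adjusted p of 0.324. With the replicate block it was 1.23 with an edgeR adjusted p of 0.013. The values in single lines rested on single libraries, at -0.98 in SNU475 without the first lactate library and -0.22 in PLC/PRF/5 without the second. CA9 did not pass between untreated lines, at -1.53 ± 1.08 for SNU475 over HLF (edgeR adjusted p 0.286), -1.56 ± 1.08 for PLC/PRF/5 over HLF (0.27) and -0.03 ± 1.10 for PLC/PRF/5 over SNU475 (0.988). With no filter on low counts it passed as lower than in HLF in SNU475 (-1.50, edgeR adjusted p 0.00352) and in PLC/PRF/5 (-1.50, adjusted p 0.00298).

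CA9 had counts that were not whole in 9 of 12 libraries. Its exons share 643 bases, 38.5% of their length, with ARHGEF39 on the other strand, so that reads of these genes cannot be told apart without the counting setting. ARHGEF39 stood at 44.7 to 54.7 CPM in PLC/PRF/5, 20.4 to 23.3 CPM in HLF and 4.54 to 8.67 CPM in SNU475. Its mean lactate effect was -0.20 ± 0.13 (edgeR adjusted p 0.495). Whether reads of ARHGEF39 enter the CA9 counts was not tested.

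CA12 (ENSG00000074410.14; chromosome 15, 63321378 to 63382161, minus strand) is the other surface enzyme of the set, found in kidney, colon and many carcinomas. In SNU475 it had 74.4 and 69 CPM in the controls and 108 and 71.1 CPM with lactate, where 1 lactate library lay between the controls, and a log2 fold change of 0.32 ± 0.28 (edgeR adjusted p 0.707). Without the first lactate library that value was -0.01. For PLC/PRF/5 the values were 0.338 and 0.498 CPM in the controls and 0.774 and 1.21 CPM with lactate, from 6, 10, 20 and 24 counts. The groups did not overlap, and the log2 fold change was 1.21 ± 0.45 (unadjusted p 0.0223, edgeR adjusted p 0.746). In HLF 1 count was seen in 4 libraries. The SNU475 controls were at least 935-fold above the HLF controls (2521 counts against 0, edgeR adjusted p 3.68e-07) and 167-fold above those of PLC/PRF/5 (log2 of PLC/PRF/5 over SNU475 -7.39 ± 0.41, adjusted p 3.92e-07). PLC/PRF/5 was at least 5.51-fold above HLF, from 16 counts against 0 (edgeR adjusted p 0.00219), a call that was lost on the TPM scale (limma adjusted p 0.65), and the gene did not pass the filter with only these groups in the fit.

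Other genes of acid-base handling were read from lists, with the mean lactate effect over the lines as the measure, and 0 of the genes in each list passed in edgeR. Of 15 other SLC4 and SLC26 carriers, 6 were tested, 5 with a positive value, and the median was 0.27 beside 0.03 over all genes. SLC26A2, a sulfate carrier and the most abundant of them, had 0.01 ± 0.12, and SLC4A5, an electrogenic cotransporter, was the 1 gene with an unadjusted p under 0.05 (1.06 ± 0.43, edgeR adjusted p 0.26). Of 12 other carbonic anhydrases, 6 were tested, 4 were positive, the median was 0.20 and 0 had an unadjusted p under 0.05. CA11, an inactive relative and the most abundant, had 0.41 ± 0.39 (edgeR adjusted p 0.684). Over the 3 of these with more than 3 counts in every group, the median was 0.36. DESeq2, limma-voom and the replicate block called 0 in both lists.

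Of 11 sodium-proton exchangers, which export protons, 9 were tested, 7 with a negative value, at a median of -0.12. Some of the negative values came from genes with 3 counts or fewer in a group. Over the 7 with more than 3 counts in every group, the median was -0.12 as well. The 2 genes with an unadjusted p under 0.05 were SLC9A5 (0.91 ± 0.30, edgeR adjusted p 0.171) and SLC9B2 (-0.37 ± 0.13, adjusted p 0.211), and the replicate block called SLC9A5. Of 6 genes for proton-coupled monocarboxylate carriers and their chaperones, 5 were tested, all 5 positive, with a median of 0.11. BSG, the chaperone of the carriers, had 0.12 ± 0.20. SLC16A3, the carrier MCT4 that exports lactate with a proton, was the 1 with an unadjusted p under 0.05 (0.94 ± 0.19, edgeR adjusted p 0.0608), and DESeq2 and the replicate block called it. Of 12 regulators of these carriers, 11 were tested, 8 were positive, and the median was 0.10. NHERF1, a scaffold for membrane carriers, had 0.06 ± 0.25, and AHCYL1, which binds and activates SLC4A4, was the 1 with an unadjusted p under 0.05 (0.40 ± 0.11, edgeR adjusted p 0.108) and was called by DESeq2 and with the replicate block. DESeq2 called 0 of the sodium-proton exchangers, and limma-voom called 0 in each of these lists. SLC4A5, SLC9A5, SLC9B2, SLC16A3 and AHCYL1 were named after their values were seen.

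CA9 was also set beside 10 other targets of hypoxia-inducible factors. The mean effect was above 0 for all 10, at a median of 0.61 (0.53 over the 9 with more than 3 counts in every group), and 6 had an unadjusted p under 0.05, where 15.8% of all tested genes did. SLC2A1, the glucose carrier and the most abundant of them, had 0.24 ± 0.17 (edgeR adjusted p 0.55). No target passed in edgeR as fitted or in limma-voom. DESeq2 called 2 of 10 (NDRG1 and P4HA1; 5.32% of all genes) and the replicate block called 4 (BNIP3, NDRG1, P4HA1 and PDK1; 6.91%), all higher. In edgeR with no filter on low counts 5 passed (BNIP3, NDRG1, P4HA1, PDK1 and VEGFA; 922 of 32081 genes), and 3 passed without both SNU475 libraries numbered 2 (BNIP3, P4HA1 and PDK1; 2.76%). Leaving out a single library gave calls only for the first SNU475 lactate library (ADM and VEGFA) and the second (BNIP3, P4HA1 and PDK1). Leaving out any other library gave none. DESeq2 size factors in edgeR and limma on log2(TPM + 0.5) gave none either. CA9 at 1.32 ± 0.61 was above the median of these genes, with an error as large as that median.

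**Figure D5:**
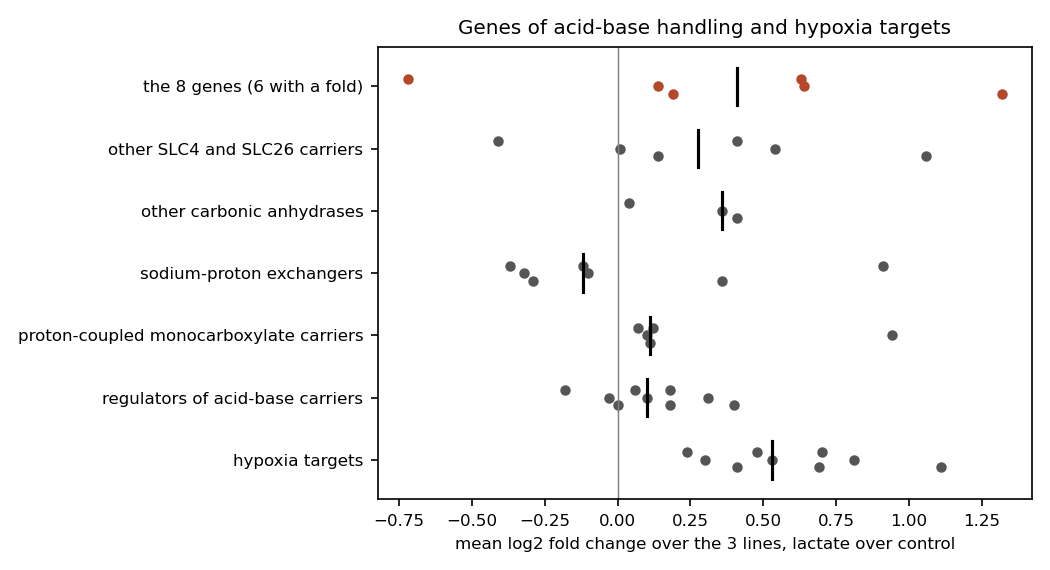
Mean log2 fold change of lactate over control across the 3 lines (horizontal axis), 1 point per gene with more than 3 counts in every group, for the described genes and each list, with a bar at the median. Sodium-proton exchangers have their median at -0.12, and the hypoxia targets all lie right of 0 with a median of 0.53.

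Genes whose level was most like that of each member were sought over the 12 libraries among the 11673 genes averaging 5 CPM or more, by Pearson's r of log2 CPM. These values describe 12 points that share 3 lines, so that a gene high in 1 line resembles any other gene high there. For CA2 they were CALB1 and TOX3 (r = 0.998 for both), for CA12 MKX (0.998) and VANGL2 (0.996), and for SLC4A4 CXADR and APOH (0.991 for both). For SLC4A3 they were SLC39A4 (0.987) and OLFML2A (0.983), for SLC4A7 PTPRM (0.983) and SYNE2 (0.978), and for SLC26A6 POLR2H (0.983) and TMEM161A (0.979). SLC4A2 was nearest to JMJD4 (0.982) and TRUB2 (0.956), and CA9, with the loosest likeness, to SPAG4 (0.920) and PFKFB4 (0.903).

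With each line's mean taken away, so that only differences within a line remained, JMJD4 stayed nearest to SLC4A2 (r = 0.991), followed by IKBKE (0.980). CA9 was then nearest to PFKL (0.969) and MPI (0.963), enzymes of sugar phosphate metabolism, and SLC4A7 had PIK3CB (0.954) among its nearest. SLC4A4 was nearest to C3 (0.986) and PPL (0.979), SLC4A3 to FGD1 (0.970) and ARHGEF6 (0.930), and SLC26A6 to AKR1A1 (0.968) and SEMA4C (0.934). CA2 and CA12 were left out, being at or near 0 in other lines. Depth, mitochondrial share and treatment all vary among these 12 points, and their part in the likeness was not tested.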

How the data were processed

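Gene tables of 12 RNA-seq libraries were used. The authors deposited expected counts, which are estimated and can be fractional, together with TPM and effective lengths, all in RSEM's columns per the file headers. Tools in the submitters' processing notes are FastQC, STAR, RSEM and DESeq2 (no versions), beside the mouse builds GRCm38 and mm10. Each of the 62757 rows has a human Ensembl identifier and 0 have a mouse one, so the tables were read as human; the authors' human build and annotation: not given in the sources used here. For PLC/PRF/5, libraries numbered 2 in the titles carry another number in the deposited names; titles were followed.

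Pseudoautosomal genes had 47 Y-copy rows, merged into the X copy, for 62710 genes. Expected counts were rounded, filterByExpr by group left 18355 genes, and TMM factors lay between 0.794 and 1.165. The edgeR 4.0.16 quasi-likelihood model (robust, under R 4.3.3) was fitted to the 12 libraries as 6 groups, with 6 residual degrees of freedom and a common coefficient of variation of 0.26. Contrasts were lactate against control in each line, their mean, their interaction, and pairs of untreated lines, with Benjamini-Hochberg adjustment over all tested genes and a threshold of 0.05. CPM use the scaled library sizes, errors of levels are SD of 2 libraries, and errors of log2 fold changes are SE of the fit. Folds with a group of 0 counts are bounds from 3 counts over the group. The script was tested on simulated data.

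Alternatives were no filter, DESeq2 size factors, DESeq2 1.42.0, limma-voom (limma 3.58.1), limma on log2(TPM + 0.5), a replicate block, only the groups compared, leaving out both SNU475 libraries numbered 2, and leaving out each library. The replicate numbers come from the sample titles. Within a line, deviations from the group mean correlated between libraries of 1 number at 0.101 (HLF), 0.446 (SNU475) and 0.132 (PLC/PRF/5). The replicate block reads them as pairs, although the correlation was weak in HLF and PLC/PRF/5.

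The members and lists were chosen with earlier results of these data known. All members are reported in every contrast. From each list the text names called genes or, with none, the most abundant one, and, for each member, the 2 genes of highest correlation; some genes these rules pick are not reported here. Positions are from GENCODE v29 (GRCh38).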

Additional observations from a re-analysis of the deposited data

How the results depend on the processing

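Members passing the threshold in HLF stayed at 0 in every alternative. In SNU475, 0 became 2 with no filter on low counts (SLC4A2 and SLC4A7; 414 of 32081 genes in all). In PLC/PRF/5, 0 became 1 with no filter (CA9; 188 genes in all) and 1 with only the groups compared (SLC4A2, -0.56, edgeR adjusted p 0.0481; 569 of 15379 genes in all). For the mean effect, 0 became 3 with no filter, 1 with DESeq2 (SLC4A7), 3 with the replicate block (SLC4A2, SLC4A7 and CA9) and 1 without both SNU475 libraries numbered 2 (SLC4A2); the block changed no other call in a single line. Leaving out each library gave 0 to 1 in SNU475, 0 to 1 for the mean effect, 0 to 1 for the interaction, 3 to 4 for untreated SNU475 against HLF, 6 for PLC/PRF/5 against HLF and 5 to 6 for PLC/PRF/5 against SNU475; each 1 under lactate is SLC4A2 without the first SNU475 lactate library. The cause was not tested. Over all tested genes, calls for the mean effect moved from 77 to 922 with no filter, 977 with DESeq2, 1268 with the block, 16 with limma-voom, 9 with limma on TPM and 530 without both SNU475 libraries numbered 2, and from 0 to 1493 on leaving out a library. Where a library left a group with 1, that one was assumed to vary like the other groups.

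Of 1008 values of single members under alternatives, 955 kept their direction and side of the threshold and 21 turned sign. The sign turned outside leave-one-out for SLC26A6 in HLF (0.18, limma on TPM) and for CA9 in untreated PLC/PRF/5 against SNU475 (0.13 with limma-voom, 0.79 with limma on TPM). Leaving out each library in turn gave a range across 0 for untreated SLC4A2 (-0.18 to 0.31 for SNU475 against HLF, -0.2 to 0.06 for PLC/PRF/5 against HLF, -0.35 to 0.11 for PLC/PRF/5 against SNU475), SLC4A3 in SNU475 (-0.39 to 0.84), SLC4A4 (-0.62 to 1.25 in SNU475, -0.02 to 0.11 in PLC/PRF/5, -0.14 to 0.49 for the mean effect), SLC4A7 in PLC/PRF/5 (-0.02 to 0.53), SLC26A6 in HLF (-0.66 to 0.03), CA2 in PLC/PRF/5 (-0.32 to 0.06), CA9 (-0.98 to 2.92 in SNU475, -0.22 to 3.07 in PLC/PRF/5, -1.31 to 1.63 for untreated PLC/PRF/5 against SNU475) and CA12 in SNU475 (-0.01 to 0.59). Depth limits CA2 and CA12 in HLF, CA2 in SNU475 and SLC4A3 in HLF, where a library held at most 8 counts.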

Other observations

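Other genes of acid-base handling also differed between the untreated lines. Against HLF, 43% of all tested genes passed in PLC/PRF/5, 21.7% as higher. Of the 5 tested genes for proton-coupled lactate transport, 3 passed there, all as lower. SLC16A3, the lactate exporter MCT4, stood at 118 TPM in HLF and 6.3 TPM in PLC/PRF/5 (log2 -4.48 ± 0.38, edgeR adjusted p 3.66e-06). SLC16A1, the carrier MCT1, stood at 55.4 and 32 TPM (log2 -1.12 ± 0.24, adjusted p 0.00287), and EMB, a chaperone of these carriers, at 26.2 and 4.87 TPM (log2 -2.67 ± 0.60, adjusted p 0.00412). SNU475 was also below HLF in SLC16A3 (log2 -1.05 ± 0.33, edgeR adjusted p 0.0263) and in EMB (log2 -6.93 ± 0.80, adjusted p 5.47e-05). In that pair 39% of all tested genes passed, 17.2% as lower. Between PLC/PRF/5 and SNU475, 22.4% of all tested genes passed as higher in PLC/PRF/5 and 26.3% as lower. Compared with SNU475, PLC/PRF/5 was higher in EMB (log2 4.26 ± 0.76, edgeR adjusted p 0.000843). It was lower than SNU475 in SLC16A3 (log2 -3.43 ± 0.37, edgeR adjusted p 2.15e-05) and SLC16A1 (log2 -0.72 ± 0.24, adjusted p 0.0258). The line with the most SLC4A4, SLC4A7, SLC26A6 and CA2 thus had the least SLC16A3 in these libraries. Of the other genes of the SLC4 and SLC26 families, SLC4A8, a sodium-driven exchanger, was lower in PLC/PRF/5 than in HLF (log2 -4.26 ± 0.60, edgeR adjusted p 0.000165), and SLC4A11 (log2 2.89 ± 0.49, adjusted p 0.000653) and SLC26A1 (log2 3.37 ± 0.85, adjusted p 0.00784) were higher. These genes were named after their values were seen.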
